A study of Mus musculus with 6 samples.

Results

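The solute carriers are a large group of membrane transporter genes whose families, numbered in the gene names, move amino acids, sugars, lactate, metals, ions, nucleotide sugars and vitamins across the plasma membrane and organelle membranes. Dividing myoblasts take up amino acids and glucose and release lactate through proton-coupled monocarboxylate carriers, and the mitochondrial carriers feed substrates to respiration. Described here are the genes named Slc and a digit whose deposited counts averaged at least 5 over the 6 libraries, without Slc26a1 and Slc7a11. They numbered 58 of 370 such names, in a table of 22753 gene identifiers; 136 of the 370 had no count in any library. The level of a gene in both groups together chose the members, so levels are given as a description.

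The cells were C2C12, a mouse myoblast line that can also become osteoblasts, grown in 10% serum. There were 3 samples in medium with 1% DMSO, the solvent, and 3 treated for 2 days with 10 µM of a screening compound, a 6,8-dimethylquinolin-2(1H)-one that carries a 4-phenyl-1H-imidazol-5-yl group at position 3, here called the compound. The 2 days also hold for the DMSO samples. No DMSO level is given for the compound samples in the sources used here, so a matched solvent cannot be assumed. The comparison asks which transcripts differ with the compound. What a difference in solvent level would add to it was not tested. Whether the 3 samples of a group were grown separately is not stated, so p-values reflect sample-to-sample spread that may be technical. Fewer cells of a type and less RNA per cell cannot be told apart in bulk RNA.

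Library totals ran from 493406 to 952813 counts. Log2 levels of DMSO replicate 3 correlated with the other DMSO libraries at 0.951 and 0.960, which correlated at 0.975 with each other. The 14 myoblast and muscle marker genes summed to 212 to 284 CPM (counts scaled to library size) per DMSO library and 232 to 286 per compound library, with 1 of them at 0 throughout. Of these markers 5 were tested: Des was higher (log2 change 0.99 ± 0.26 SE, adjusted p = 0.0160 in edgeR) and Msc lower (-1.21 ± 0.40, 0.0467), while Myh3 (0.31 ± 0.38), Tnnt1 and Pax7 did not pass. The 8 osteoblast markers summed to 52.9 to 85.0 against 50.8 to 74.3 CPM, and the 8 adipocyte and fibroblast markers to 0 to 13.2 against 4.23 to 14.5. Across the table, 91.8% of counts were filed under genes with an exon overlap on the opposite strand, and the strand setting of the counting is not given in the sources used here. A member and its opposite-strand neighbour can therefore not be told apart, and values are given as counts filed under a gene.

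The promoters of 3 changed members are printed because they show the start regions of a pair of monocarboxylate carriers that went opposite ways, Slc16a11 and Slc16a1, and of the zinc carrier Slc39a13, whose call was kept without any single library. Each is 300 bases from RefSeq on GRCm38.p6, from 250 before to 50 after the start, 5′ to 3′ on the gene's strand. The RefSeq start of Slc16a11 lies inside the span that GENCODE gives the gene. Capitals mark E-boxes, CANNTG, the letters that myogenic and other basic helix-loop-helix factors can bind.
Slc16a11, chr11:70213660-70213959, plus strand: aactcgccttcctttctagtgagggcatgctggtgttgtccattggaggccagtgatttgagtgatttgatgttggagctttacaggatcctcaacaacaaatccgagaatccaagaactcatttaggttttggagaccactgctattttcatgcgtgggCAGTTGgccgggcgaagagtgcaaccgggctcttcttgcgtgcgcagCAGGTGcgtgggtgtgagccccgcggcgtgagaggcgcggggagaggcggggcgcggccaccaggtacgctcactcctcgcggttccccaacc
Slc16a1, chr3:104638414-104638713, plus strand: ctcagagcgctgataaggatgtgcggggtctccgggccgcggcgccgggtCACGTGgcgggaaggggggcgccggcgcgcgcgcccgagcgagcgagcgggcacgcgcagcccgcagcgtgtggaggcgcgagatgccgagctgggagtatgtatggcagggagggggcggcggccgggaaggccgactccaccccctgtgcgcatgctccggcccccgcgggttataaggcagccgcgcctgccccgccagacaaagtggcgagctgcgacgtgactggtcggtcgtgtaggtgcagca
Slc39a13, chr2:91070266-91070565, minus strand: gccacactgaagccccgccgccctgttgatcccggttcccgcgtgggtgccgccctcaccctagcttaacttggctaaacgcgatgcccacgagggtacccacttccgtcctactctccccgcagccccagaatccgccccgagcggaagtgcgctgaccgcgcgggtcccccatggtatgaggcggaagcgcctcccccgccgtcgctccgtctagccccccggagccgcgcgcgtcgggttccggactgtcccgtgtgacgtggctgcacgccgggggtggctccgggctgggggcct

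The Slc16a11 window held 2 E-boxes, which begin at positions -90 and -43 from the start, and the Slc16a1 window 1, at -200, whereas these letters were not in the Slc39a13 window. Of 32851 promoters of this length, 72.3% held an E-box on either strand. The GC box GGGCGG, read on both strands, occurred 3 times in the Slc39a13 window and 1 time in that of Slc16a1, and in 35.7% of all promoters. The CCAAT box occurred 1 time in the Slc16a11 window and in 37.4% of all promoters. The TATA box TATAAA (13.6% of all promoters), the cAMP response element TGACGTCA (1.79%) and the amino acid response element TGATGNAA (3.97%) were in none of these 3 windows. A match is a run of letters and says nothing of binding.

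Counts under 10 of the 39 solute carrier genes with enough counts to test changed with the compound, 3 higher and 7 lower, at an adjusted p under 0.05 in edgeR's quasi-likelihood test. That is 25.6% of the tested members, beside 18.0% of all 2440 tested genes (7.50% higher and 10.5% lower). Rises were under the monocarboxylate carrier Slc16a1, the amino acid transporter chain Slc3a1 and the peptide carrier Slc15a3. Falls included those under the monocarboxylate carriers Slc16a13 and Slc16a11, the amino acid carriers Slc43a1 and Slc6a9, the zinc carrier Slc39a13 and the glucose carrier Slc5a2. The median log2 change of the tested members was 0.05 and that of all tested genes 0.02. In CPM the groups were fully separate for 14 of the 39, or 35.9%, beside 36.4% of all tested genes. Of the 58 members, the authors' deposited table gives 5 as higher and 8 lower at an adjusted p under 0.05, the same 10 with Slc7a7, Slc2a6 and Slc23a1 added.

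**Figure D1:**
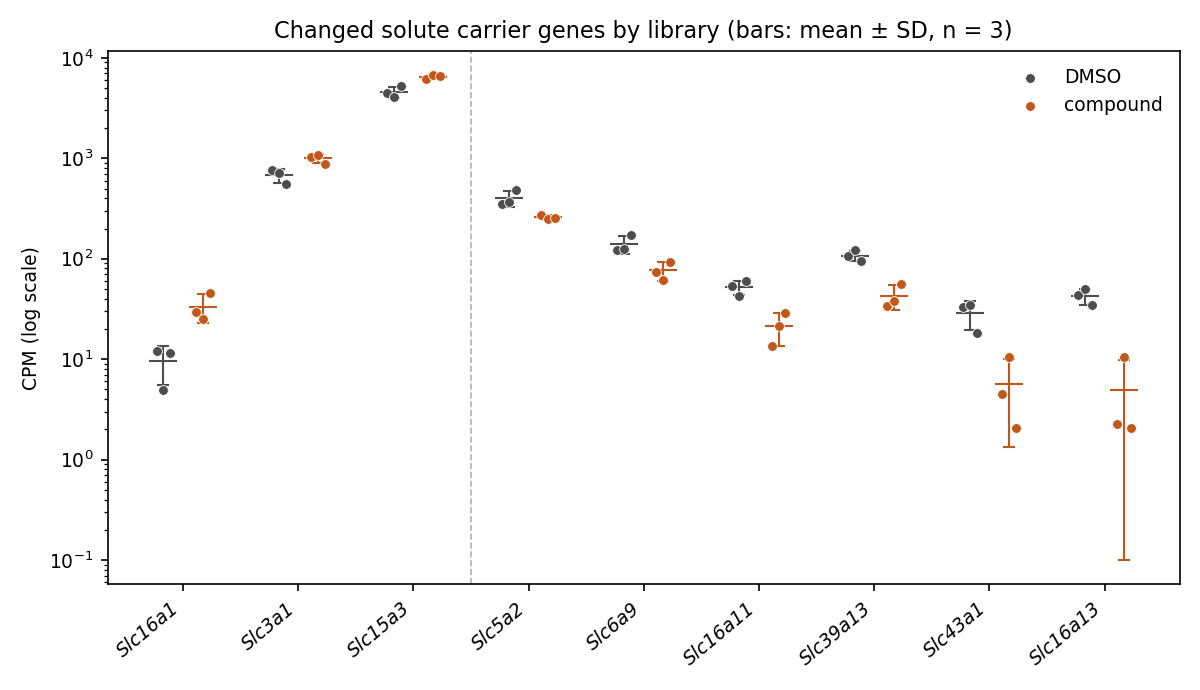
CPM per library on a log axis for 9 of the 10 changed solute carrier genes, DMSO in grey and compound in orange; horizontal bars are the group mean and whiskers the SD (n = 3), and the dashed line parts 3 rises from 6 falls. For each gene every compound library lies on one side of every DMSO library, from Slc15a3 near 4603 CPM in DMSO down to Slc16a1 near 9.54.

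Among the 7 monocarboxylate carriers, all of them tested, 1 was higher and 2 lower, and the median log2 change was 0.17. Slc16a13, a carrier reported to move lactate (chromosome 11, 70216789 to 70221064, minus strand), had 25, 30 and 36 counts in DMSO, in replicate order, and 1, 5 and 1 with the compound. Every compound library was far under every DMSO library. Its level fell from 42.5 ± 7.57 to 4.97 ± 4.86 CPM (SD, n = 3), 8.13-fold lower, with a log2 change of -3.02 ± 0.57 (SE) and an adjusted p of 0.00173 in edgeR. Slc16a11, a monocarboxylate carrier gene (chromosome 11, 70212752 to 70216417, plus strand), had 31, 26 and 62 counts in DMSO and 6, 10 and 14 with the compound. Again no compound library reached the lowest DMSO library. It fell from 52.1 ± 8.37 to 21.2 ± 7.77 CPM (SD, n = 3), 2.44-fold, with an adjusted p of 0.0292 in edgeR. Of the 6 fits that left out 1 library, the call was missed in 4, without DMSO replicate 1 (0.0584) or 3 (0.0531) and without compound replicate 1 (0.112) or 2 (0.0874), at log2 changes of -1.59 to -1.05 over all 6. DESeq2 missed it too (0.111).

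Slc16a11 and Slc16a13 are direct neighbours. They point towards each other with a gap of 371 bases between their 3′ ends. They share no annotated exon, and no exon is annotated over either of them on the opposite strand. They are the 2 monocarboxylate carriers whose counts fell. What reads past either annotated 3′ end add to the neighbour was not tested. The other members that lie within 100000 bases of each other, Slc24a5 with Slc12a1 and Slc31a2 with Slc31a1, had only 1 tested gene each, at log2 changes of 0.06 and -0.40, and neither passed.

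**Figure D2:**
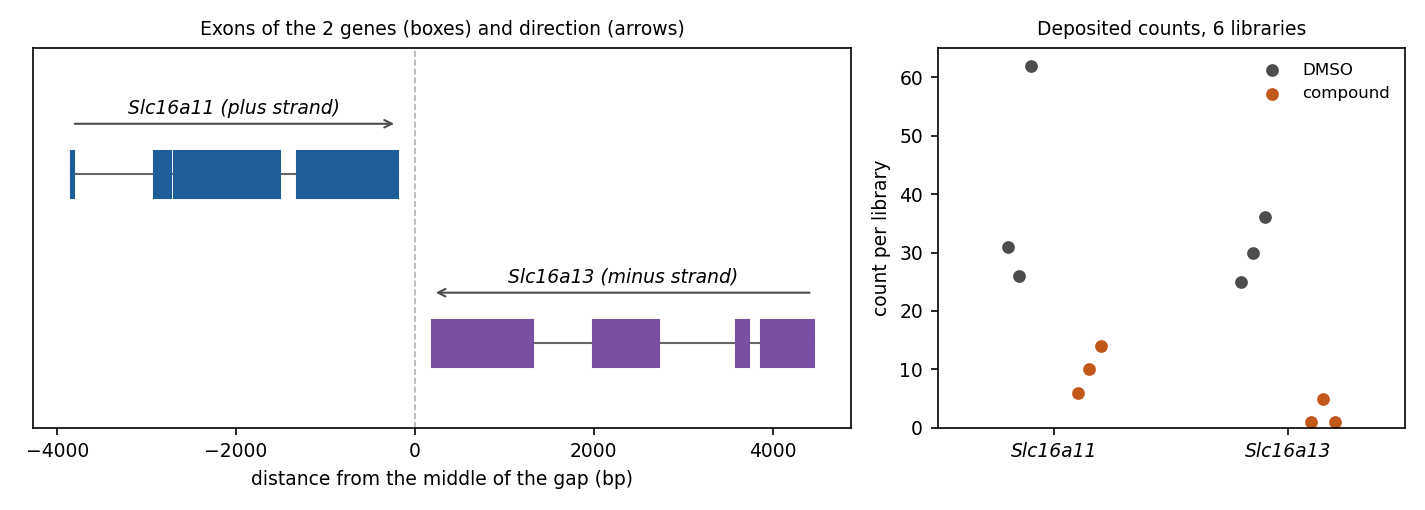
Left, annotated exons (boxes) of Slc16a11 on the plus strand and Slc16a13 on the minus strand against the distance in bases from the middle of the 371-base gap between them, with arrows for the direction of transcription. Right, the deposited count of each gene in the 3 DMSO (grey) and 3 compound (orange) libraries; Slc16a13 has 25 to 36 counts in DMSO and 1 to 5 with the compound.

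Slc16a1 (chromosome 3, 104638668 to 104658462, plus strand) encodes MCT1, the widely expressed carrier that takes up and releases lactate. It had 7, 3 and 12 counts in DMSO and 13, 12 and 22 with the compound, so the lowest compound library equalled the highest DMSO library in raw counts. Scaled to library size they did not overlap, at 9.54 ± 3.98 and 33.4 ± 10.8 CPM (SD, n = 3). The rise was 3.39-fold, with a log2 change of 1.76 ± 0.49 (SE) and an adjusted p of 0.0216 in edgeR. The call was missed when DMSO replicate 2 (0.103) was left out, or replicate 1 (0.0528) or 3 (0.130) of the compound, and by DESeq2 (0.0867), while the log2 change stayed between 1.46 and 1.94 over the 6 fits that left out 1 library. No exon of another gene overlaps it on the opposite strand. Slc16a3, which encodes the lactate exporter MCT4, had a log2 change of 0.17 ± 0.28, Slc16a4 of -0.09 ± 0.28, Slc16a6 of 0.20 ± 0.22 and Slc16a8, a lactate carrier of the retinal pigment epithelium, of 0.75 ± 0.51 (SE), and none of these passed. For Slc16a3 the 95% interval of the log2 change ran from -0.38 to 0.73.

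By the family number in the name, 12 members were placed with amino acid and peptide carriers, and 7 of them could be tested. Of these, 2 were higher and 2 lower, with a median log2 change of 0.50. Names alone placed the genes, so a member of a group need not be a carrier. Slc15a3 encodes an endolysosomal carrier of peptides and histidine known from immune cells (chromosome 19, 10839727 to 10859362, plus strand). It had the highest mean count of the members, with 2577, 2483 and 5448 in DMSO and 2767, 3166 and 3177 with the compound. It took 39.8% to 46.1% of the members' counts in a DMSO library and 48.0% to 51.0% in a compound library. In CPM all compound libraries were higher, at 4603 ± 573 against 6506 ± 246 (SD, n = 3), a 1.41-fold rise (edgeR adjusted p = 0.00963). Its exons share 1541 bases with exons of Tmem132a on the opposite strand, all outside the coding part of Slc15a3. Tmem132a itself had a log2 change of -0.23 ± 0.38 (SE).

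Slc3a1 encodes rBAT, the heavy chain of the kidney cystine transporter (chromosome 17, 85028376 to 85064236, plus strand). It had 443, 429 and 576 counts in DMSO and 461, 512 and 425 with the compound, overlapping until scaled. The scaled groups did not overlap, at 677 ± 111 and 1001 ± 106 CPM (SD, n = 3), a 1.48-fold rise (edgeR adjusted p = 0.0262). Its exons share 601 bases with Prepl, 441 of them in the coding part of Slc3a1. Counts under Prepl, a mean of 16.5, were higher too, at 1.27 ± 0.42 on the log2 scale (SE, edgeR adjusted p = 0.0467).

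Slc43a1 encodes LAT3, a sodium-independent carrier of large neutral amino acids (chromosome 2, 84838850 to 84863594, plus strand). It had 19, 21 and 19 counts in DMSO and 2, 5 and 1 with the compound, with wide separation. It fell from 28.6 ± 9.06 to 5.72 ± 4.38 CPM (SD, n = 3), 4.75-fold, with an adjusted p of 0.0189 in edgeR, and no opposite-strand exon is annotated over it. The call was kept in only 2 of the 6 fits that left out 1 library, and was missed by DESeq2 (0.0620) and limma-voom (0.0534). Slc6a9 encodes the glycine transporter GlyT1 (chromosome 4, 117834506 to 117875198, plus strand) and had 71, 75 and 180 counts in DMSO and 33, 29 and 45 with the compound. It fell 1.85-fold, from 140 ± 28.4 to 76.3 ± 16.1 CPM (SD, n = 3, adjusted p = 0.0239 in edgeR, but 0.0673 in DESeq2). Its exons share 1429 bases with Ccdc24, under which the log2 change was -2.20 ± 0.19 (SE). Slc7a7, the light chain of a dibasic amino acid exchanger, had a log2 change of 1.18 ± 0.41 (SE) and missed the threshold (adjusted p = 0.0577), with groups that did not overlap, while Oxa1l, which shares 232 bases with it on the opposite strand, rose by 2.31 ± 0.34. The authors' deposited table listed Slc7a7 with an adjusted p of 0.0330. Slc6a6, the taurine carrier, and Slc7a15 stood at 0.62 ± 0.35 and -0.09 ± 0.27 and did not pass. Slc3a2, the heavy chain shared by many plasma membrane amino acid exchangers, had 3, 10 and 9 counts against 14, 1 and 4, too few to test.

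**Figure D3:**
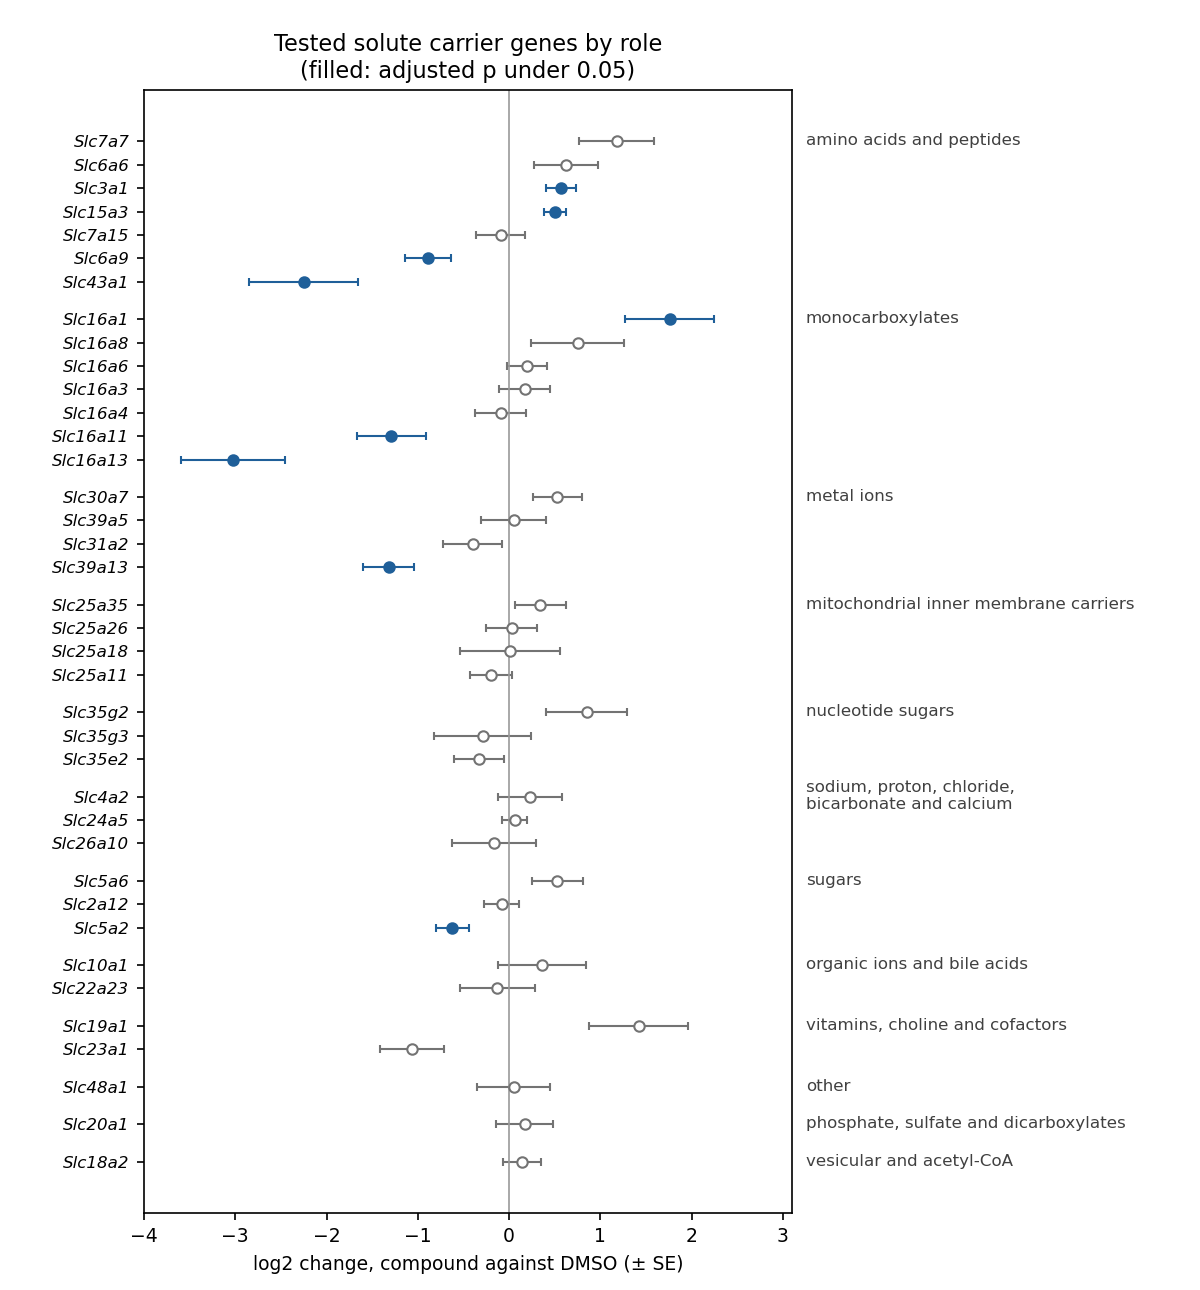
Log2 change, compound against DMSO, of 38 of the 39 tested solute carrier genes, grouped by the kind of substrate their family moves; whiskers are the SE of edgeR's fit and filled points have an adjusted p under 0.05. The monocarboxylate carriers span the widest range, from -3.02 for Slc16a13 to 1.76 for Slc16a1, while the 4 mitochondrial carriers lie between -0.20 and 0.34.

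Among metal carriers, 1 of 4 tested members changed. Slc39a13 encodes ZIP13, a zinc carrier of the secretory pathway needed for connective tissue (chromosome 2, 91061791 to 91070417, minus strand). It had 61, 73 and 99 counts in DMSO and 15, 18 and 27 with the compound, every compound library being lower. It fell from 107 ± 12.9 to 42.6 ± 11.8 CPM (SD, n = 3), 2.49-fold, with a log2 change of -1.32 ± 0.28 (SE) and an edgeR adjusted p of 0.00454. Its exons share 215 bases, 97 of them coding for Slc39a13, with the proteasome subunit gene Psmc3, whose own log2 change was -0.22 ± 0.18 and did not pass. Slc30a7, a zinc carrier of the Golgi, stood at 0.53 ± 0.27, and Slc31a2, a copper carrier, at -0.40 ± 0.32; neither passed.

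Of the carriers of sodium, protons, chloride, bicarbonate and calcium, 4 of 8 were tested. Slc24a5, a cation exchanger of melanosomes, had 1479, 1326 and 1958 counts in DMSO and 1031, 1111 and 1090 with the compound. In CPM its groups overlapped, at 2213 ± 343 and 2311 ± 45.3 (SD, n = 3), with a log2 change of 0.06 and a 95% interval of -0.21 to 0.33. Its exons share 921 bases with Myef2 on the opposite strand, 527 of them coding for Slc24a5. Slc4a2, the anion exchanger AE2, stood at 0.23 ± 0.35 and did not pass.

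Of 3 tested members in the sugar carrier families, 1 was lower. Slc5a2 encodes SGLT2, the glucose carrier of the kidney tubule (chromosome 7, 128265657 to 128272430, plus strand). It had 203, 222 and 500 counts in DMSO and 122, 118 and 124 with the compound, the latter close together. It fell 1.54-fold, from 400 ± 69.9 to 261 ± 12.8 CPM (SD, n = 3, adjusted p = 0.0275 in edgeR). Its exons share 597 bases with BC017158, which had a mean count of 0.833. Slc2a12, the glucose carrier GLUT12 of muscle and fat, had 161, 165 and 249 counts in DMSO and 100, 137 and 112 with the compound, or 264 ± 21.6 and 249 ± 35.5 CPM (SD, n = 3), and did not pass. Slc5a6, grouped here by its family number, carries vitamins such as biotin and not sugars, and had a log2 change of 0.53 ± 0.28 with an adjusted p of 0.222. Its DMSO replicate 3, at 84.5 CPM, lay under the 206 and 199 CPM of the other DMSO libraries.

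None of the 4 tested mitochondrial inner membrane carriers passed. The oxoglutarate carrier Slc25a11 stood at a log2 change of -0.20 ± 0.23, Slc25a35 at 0.34 ± 0.28, the S-adenosylmethionine carrier Slc25a26 at 0.03 ± 0.28 and Slc25a18, a glutamate carrier, at 0.01 ± 0.55 (SE). The phosphate carrier Slc25a3, which every respiring cell needs, had only 1 to 9 counts per library and was not tested. In the vitamin group, the ascorbate carrier Slc23a1 had a log2 change of -1.06 ± 0.35 and an adjusted p of 0.0502, and the folate carrier Slc19a1 of 1.42 ± 0.54 with 0.0816 in edgeR. The groups did not overlap for either gene. Slc19a1 had 3, 4 and 21 counts in DMSO and 20, 11 and 13 with the compound, and passed without DMSO replicate 3. Among the nucleotide sugar families Slc35e2 stood at -0.33 ± 0.27 and Slc35g2 at 0.85 ± 0.44. The vesicular monoamine carrier Slc18a2 stood at 0.14 ± 0.21, the phosphate carrier Slc20a1 at 0.17 ± 0.31 (its relative Slc20a2 had too few counts to test), the haem carrier Slc48a1 at 0.05 ± 0.40, the bile acid carrier Slc10a1 at 0.36 ± 0.48 and Slc22a23 at -0.13 ± 0.41. None of these passed.

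Counts were spread unevenly over the members. Of the 58, 9 had a mean count of at least 100 and 18 under 10. The 19 members that were not tested had mean counts of 5.00 to 11.8, and the nucleoside carrier Slc28a3 was among them. Just inside the limit lay Slc9a5 with a mean count of 5.00 and Slc35b3 with 5.17; just outside lay Slc8b1, Slc44a3 and Slc6a8 with 4.83 each. Counts per kilobase of annotated exon scale for length but do not set apart any opposite-strand reads. On this scale Slc24a5 stood at 950 CPM and Slc15a3 at 838 in DMSO, and at 992 and 1185 with the compound. Slc3a1 followed at 298 and 441 CPM per kilobase. Together the members held 1.04% to 1.24% of the counts of a DMSO library and 1.15% to 1.22% of a compound library.

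An annotated exon overlap with a gene on the opposite strand was found for 29 of the 58 members. It was found for 23.5% of all table genes and 16.1% of the 310 Slc genes with a mean count under 5. The members were chosen by count and these other sets were not held to that limit, so the shares are not like for like. Among tested genes, 23 of 39 members had an overlap, beside 1760 of all 2440. These 29 held 91.9% of the members' counts, with a median of 48.8 per gene; the other 29 had a median of 11.5. The most counted members, Slc15a3, Slc24a5, Slc3a1 and Slc5a2, all had an overlap. Of the tested members, 6 of 23 with an overlap changed (2 higher, 4 lower) and 4 of 16 without (1 higher, 3 lower), or 26.1% and 25.0%. Over all tested genes 343 of 1760 with an overlap changed, or 19.5%, and 95 of 680 without. What opposite-strand reads contribute to these values was not tested.

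**Figure D4:**
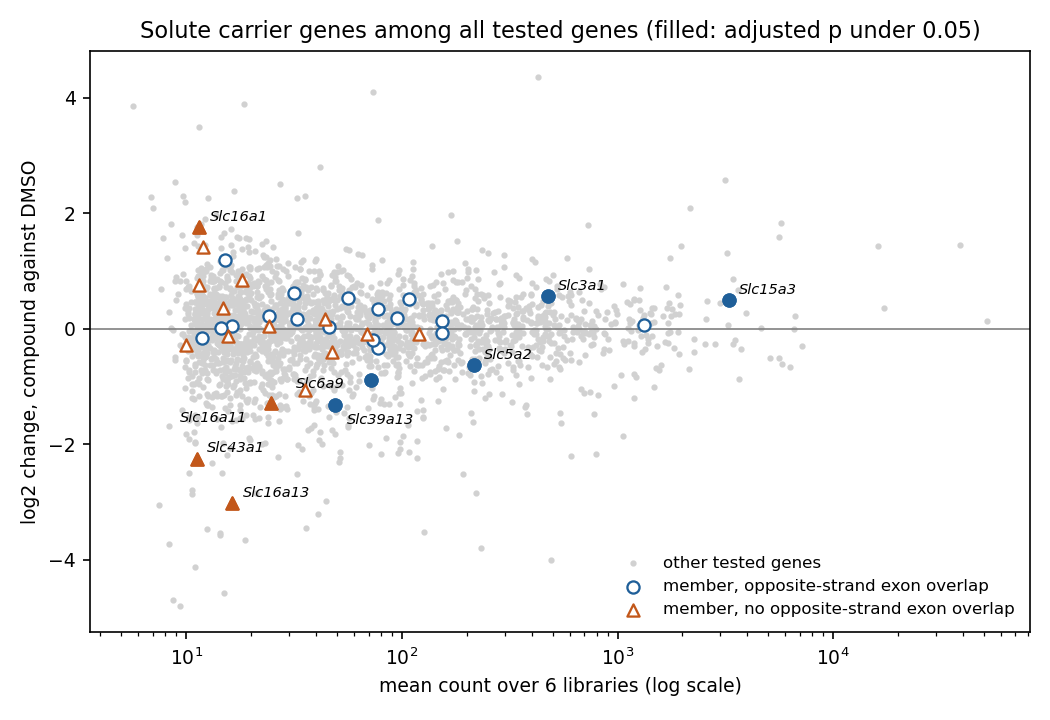
Log2 change, compound against DMSO, against the mean count over 6 libraries (log axis) for 38 of the 39 tested solute carrier genes and the other tested genes (grey); circles are members with an opposite-strand exon overlap, triangles members without, and filled symbols have an adjusted p under 0.05. The members without an overlap lie towards low counts, and the larger changes, such as Slc16a13 at -3.02 and Slc43a1 at -2.25, are among them.

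The libraries were not equally close to each other over these genes. The median within-group SD of log2 CPM was 0.37 over the 39 tested members and 0.36 over all tested genes. DMSO replicate 3 lay above the other DMSO libraries by a median of 0.29 (log2 CPM) over the members and of 0.02 over all tested genes. Single members ranged from -1.26 for Slc5a6 to 1.70 for Slc19a1. Members were chosen by mean raw count, and DMSO replicate 3 had the highest total, so these medians are not like for like. In the fit without DMSO replicate 3, 4 members were higher and 6 lower. That is 26.3% of 38 tested, beside 24.2% of all genes tested in that fit.

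Genes that work with these carriers were mostly too sparse. Of 36 transporter partners and other transport genes, 35 were in the table and 1 was tested, the lysosomal and melanosomal gene Mfsd12, with a log2 change of -0.33 ± 0.47, which did not pass. Bsg, the basigin gene whose product brings MCT1 and MCT4 to the cell surface, had 5, 2 and 5 counts in DMSO and 15, 9 and 6 with the compound. The outer mitochondrial membrane channel gene Vdac2 had 10, 10 and 22 against 3, 3 and 8. Of 20 amino acid response genes, which include regulators of amino acid carriers, 3 were tested. Atf5, a stress-induced transcription factor, was lower at -1.12 ± 0.22 on the log2 scale (edgeR adjusted p = 0.00217). Ddit3 and Cebpg stood at -0.51 ± 0.17 and -0.51 ± 0.29 and did not pass, and Atf4, their upstream regulator, had 1 to 9 counts per library.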

How the data were processed

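Poly-A RNA of 6 C2C12 samples was sequenced. The labels give TruSeq RNA kit v2 with poly-A selection and also describe stranded sequencing. That kit does not by itself mark the strand, so whether the libraries were stranded cannot be told from the labels. Per the submitters' processing notes, STAR 2.3.0e, HTSeq 0.6.0 and mm10 were used, with the annotation release and strand setting not given in the sources used here. A single deposited table from the authors, 24725 rows long, holds raw counts per gene and library, used here for every test; each of the 22753 identifiers was used once. Its columns marked as normalised hold a deposited signal, by its values the count divided by 1 factor per library, and were not used. Its log2 fold changes, test score and p-values, in the column layout of DESeq2 per the file headers, are cited only as the authors' deposited table.

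Raw counts went into edgeR 4.0.16 under R 4.3.3, with TMM scaling, filterByExpr grouped by treatment and a two-sided quasi-likelihood F test. P-values were adjusted by Benjamini-Hochberg over 2440 genes, with calls at 0.05. SE is the size of the log2 change over √F; 95% intervals are 1.96 SE. CPM use TMM library sizes, and totals cover the table's genes only. GENCODE M21 (GRCm38, the assembly of mm10) gave positions and exon overlaps of all 58 members; 38 had the same span in the table. Steps were tested on simulated counts. As alternatives, DESeq2 1.42.0, its size factors inside edgeR, upper-quartile scaling and limma-voom (limma 3.58.1) were run, as were fits with every gene kept, with mean counts from 50 up, an adjusted p of 0.01, with a replicate block and with each library left out. Python 3.11.15, pandas 2.3.3, numpy 2.4.6 and matplotlib 3.10.9 made summaries and figures.

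Members, role groups and gene lists were chosen with earlier results of these data known. The naming rule took every changed member (1 is not reported here, and is counted but not drawn), in each role group the 2 unchanged members of highest mean count, the members nearest the limit of 5 on either side, and of each other list the genes that passed or else the 2 of highest count. Slc7a7, Slc2a6, Slc16a3, Slc16a8, Slc25a26, Slc25a18, Slc25a3, Slc3a2, Slc12a1, Slc31a1, Bsg, Vdac2, Cebpg, Atf4, Myh3, Tnnt1 and Pax7 were named outside it, after their values were seen.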

Additional observations from a re-analysis of the deposited data

How the results depend on the processing

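The number of calls moved with single libraries, over all genes as over the solute carriers. Leaving out 1 library at a time gave 0 to 4 members higher and 2 to 6 lower in edgeR, or 7.32% to 26.3% of tested members beside 8.80% to 24.2% of all tested genes. In the 2 fits with 0 higher, without DMSO replicate 2 and without compound replicate 3, 5 and 6 members were higher at an unadjusted p under 0.05. Slc16a13 (log2 change -4.17 to -2.66) and Slc39a13 (-1.58 to -1.17) were called in all 6 such fits. Slc6a9 was called in 4, Slc15a3, Slc5a2 and Slc16a1 in 3, and Slc3a1, Slc16a11 and Slc43a1 in 2, with the sign of each kept and adjusted p up to 0.136. At an adjusted p of 0.01, 1 member was higher and 2 lower (7.69%, beside 8.52% of all genes). DESeq2, run with no count filter before the fit, gave 2 higher and 3 lower (8.62% beside 2.37%). Keeping only mean counts from 50 up, which leaves 16 members, also gave 2 and 3 (31.2% beside 27.9%). In edgeR with no filter on low counts 0 were higher and 8 lower (13.8% beside 3.44%), with 8 and 8 at an unadjusted p under 0.05. Log2 changes over all genes then shifted by a median of -0.10. The all-gene shares of DESeq2 and of edgeR with no filter cover 12548 genes with any count, while each member averaged at least 5. By default DESeq2 can leave low-count genes without an adjusted p after the fit, and such genes were counted as not called. Member and all-gene shares of these fits are therefore not like for like. The other scalings kept all 10 calls, and limma-voom kept 9. Same-numbered libraries correlated at -0.01, 0.02 and 0.02 (Pearson r of their deviations), so no shared deviation was seen. Whether the samples were handled in pairs cannot be told from this. The replicate block gave 3 higher and 8 lower. In the amino acid response list 1 to 2 genes were lower without 1 library, and 2 when only mean counts from 50 up were kept, where Ddit3 passed. Over 35 genes, 423 of 438 log2 changes from another fit kept the sign of the reported fit, and no call reversed. Fewer samples or genes entered some fits, and causes of the differences between fits were not tested. The count filter of the main fit left 19 members untested, at mean counts of 5.00 to 11.8.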
